A study of Oryza sativa with 7 samples.

Results

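DOF2, DOF3 and DOF5 are rice genes of the Dof family, a class of plant transcription factors, and their transcripts were followed in young caryopses with and without a normal OsbZIP76 gene. The 3 genes were taken by their symbols from the 35825 rows of the deposited expression table. They were selected on their measured RPKM values in all 6 libraries, mutant and WT, so their levels and differences are given as a description and no p-value is attached to them. Poly(A) RNA was sequenced from rice caryopses (Oryza sativa, cultivar Kitaake, grown in paddy fields) at 2 days after fertilization; the labels give caryopsis as the tissue, while their extraction text names endosperm. The groups analysed were osbzip76-1 (2 libraries), osbzip76-2 (1 library) and the wild type, WT (3 libraries). The mutant groups carry independent mutant alleles of OsbZIP76, a bZIP transcription factor gene tied to the onset of endosperm cellularization; the lesion in each allele is not given in the sources used here. According to the series description, a hot summer had already brought cellularization forward in WT and mutant grains at this age.

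Dof proteins bind DNA through a single zinc finger that recognises an AAAG core. In cereal grains the best known of them is the prolamin-box binding factor, which acts with a bZIP partner, RISBZ1 in rice, on promoters of storage protein genes. DOF3 is that factor in rice, and it is also known to act with GAMYB at an alpha-amylase promoter in the aleurone, the outer endosperm layer, under gibberellin. DOF2, DOF4 and DOF5 belong to the same family, and their roles in the young grain are less well described.

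The libraries held between 16898031 and 21108089 reads in genes. WT replicate 2 stood apart from the other 5 libraries, at 61.3 along the first principal component (45.3% of the variance), where the others lay between -30.5 and 2.97. Its reads scattered against those of WT replicates 1 and 3 with a chi-square of 44.1 and 43.8 per degree of freedom, while the osbzip76-1 pair gave 9.32 and WT replicates 1 and 3 gave 9.73. No replicate pair agreed within sampling noise, so each library was counted once. The mutated gene itself, OsbZIP76, was not analysed here. Of 18 symbols searched as markers of endosperm, maternal seed tissue and embryo, 1 was found, the embryo gene OSH1, at 4.11 to 7.56 RPKM across mutant libraries and 3.00 to 6.08 RPKM across WT libraries. Markers held under an identifier only could have been missed. The tissue makeup of the libraries was therefore not checked against endosperm or pericarp markers, and in such bulk tissue fewer cells of a type and less RNA per cell cannot be told apart.

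DOF3 had the widest difference of the 3 genes and was higher in the mutants. It stood at 53.9 and 49.3 RPKM (reads scaled by gene model length and by the library total) in osbzip76-1 replicates 1 and 2 and at 39.7 RPKM in osbzip76-2, against 18.1, 7.57 and 15.1 in WT replicates 1 to 3. The lowest mutant library was 2.19 times the highest WT library. The 3 mutant libraries held 4691 reads of DOF3 and the 3 WT libraries 1509 reads, over a gene model of 1537 bases. The mean was 47.6 ± 7.3 RPKM over the mutant libraries and 13.6 ± 5.4 RPKM over the WT libraries (± SD, n = 3 each), a ratio of 3.51. On the log2(RPKM + 1) scale the difference was 1.81 (SE 0.29), while the median over all 21454 genes tested was -0.017. DOF3 ranked 72 from the highest among these differences.

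Within WT, DOF3 was at its lowest in replicate 2. The exact 95% counting interval of that library ran from 6.69 to 8.55 RPKM, below the 13.9 to 16.3 RPKM of WT replicate 3 and the 16.8 to 19.5 RPKM of WT replicate 1. These intervals cover counting error only. Without WT replicate 2 the WT mean was 16.6 RPKM, the ratio of mutants to WT was 2.87 and the log2 difference was 1.46. DOF3 exceeded 91.9%, 91.2% and 89.2% of the genes detected in the mutant libraries, against 76.6%, 55.7% and 71.9% in WT replicates 1 to 3.

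DOF5 was also higher in the mutants. Its levels were 18.8 and 16.9 RPKM in osbzip76-1 replicates 1 and 2, with osbzip76-2 at 21.1 RPKM, against 8.05, 7.76 and 10.97 in WT replicates 1 to 3. The groups did not overlap, and WT replicate 2 lay close to WT replicate 1. The means were 18.9 ± 2.1 RPKM over the mutant libraries and 8.93 ± 1.77 RPKM over the WT libraries (± SD, n = 3 each), a ratio of 2.12. It rested on 1324 reads in the mutants and 691 reads in WT over a gene model of 1077 bases. The log2 difference was 1.01 (SE 0.16), at rank 327 from the highest. Without WT replicate 2 the ratio was 1.99.

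DOF2 went the other way and was lower in the mutants. It stood at 20.4 and 21.4 RPKM in osbzip76-1 replicates 1 and 2, with osbzip76-2 at 18.0 RPKM, against 27.0, 43.7 and 25.6 in WT replicates 1 to 3. The groups did not overlap, but the WT spread came from replicate 2, which was far above the other 2 WT libraries. The means were 19.9 ± 1.7 RPKM over the mutant libraries and 32.1 ± 10.1 RPKM over the WT libraries (± SD, n = 3 each), from 2995 and 5297 reads over a gene model of 2332 bases, and the ratio was 0.621. The log2 difference was -0.62 (SE 0.20), at rank 362 from the lowest. Without WT replicate 2 the WT mean was 26.3 ± 1.0 RPKM (SD, n = 2), the ratio was 0.759 and the log2 difference was -0.38. For DOF2 and DOF3 alike, WT replicate 2 thus lay on the far side of the other WT libraries from the mutants, and the part of that library in the differences is shown by the values without it.

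**Figure D1:**
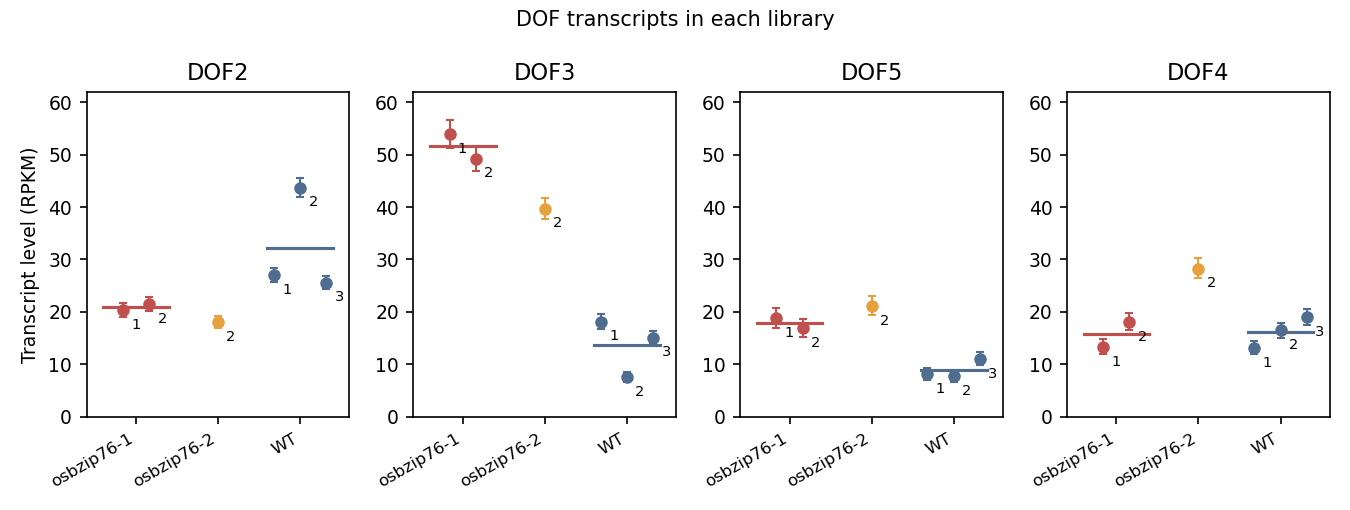
Transcript level (RPKM, vertical axis) of DOF2, DOF3, DOF5 and DOF4 in osbzip76-1, osbzip76-2 and WT. Each point is a library with its replicate number and its exact 95% counting interval, and horizontal lines are means of groups with more than 1 library. The mutant points of DOF3 lie at 39.7 RPKM and above while WT points lie at 18.1 RPKM and below; WT replicate 2 is the highest point of DOF2 and the lowest of DOF3.

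In all 3 genes the mutant and WT libraries did not overlap. Every mutant library lay above every WT library for DOF3 and DOF5, as for 9.34% of all genes tested, and below for DOF2, as for 12.3% of all genes tested. After Benjamini-Hochberg adjustment over all genes, limma called 0 of the 3 genes at 0.05 with both alleles against WT, where it called 0.387% of all genes. At an unadjusted limma p under 0.05 the counts were 3 of 3 genes and 13.7% of all genes. Voom on the recovered reads called DOF3 alone, beside 0.294% of all genes. Limma without WT replicate 2 likewise called DOF3 alone, beside 0.502% of all genes, and limma with upper-quartile scaling called DOF5 alone, beside 0.466%. Nothing is read from these counts, because the same values chose the genes.

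**Figure D2:**
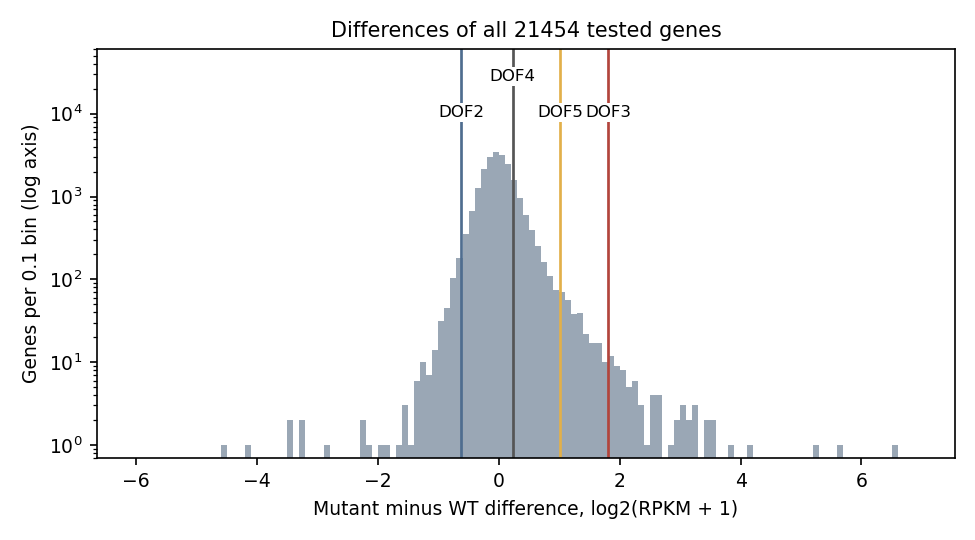
Number of genes (vertical log axis) by mutant minus WT difference on the log2(RPKM + 1) scale (horizontal axis) for the 21454 genes tested, with vertical lines at DOF2 (-0.62), DOF4 (0.23), DOF5 (1.01) and DOF3 (1.81). Most genes lie close to 0, and DOF3 falls in the thin right tail.

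The alleles were then taken one at a time against the same WT libraries, which they therefore share. DOF3 was at 51.6 ± 3.3 RPKM in osbzip76-1 (SD, n = 2), 3.80 times the WT mean, and at 2.92 times the WT mean in the osbzip76-2 library. The log2 differences from WT were 1.93 (SE 0.32) in osbzip76-1 and 1.56 (SE 0.41) in osbzip76-2. DOF5 was at 17.8 ± 1.3 RPKM in osbzip76-1 (SD, n = 2), a ratio of 2.00, and at a ratio of 2.37 in osbzip76-2, with log2 differences of 0.94 (SE 0.18) and 1.17 (SE 0.22). DOF2 had a ratio of 0.651 in osbzip76-1 and 0.562 in osbzip76-2, with log2 differences of -0.56 (SE 0.24) and -0.76 (SE 0.30). The direction was shared by the 2 osbzip76-1 libraries and the osbzip76-2 library in all 3 genes. This follows from the lack of overlap given above, in genes chosen on these values, and is not a separate result. The osbzip76-2 values rest on 1 library, whose spread was assumed to be that of the other groups. The counts of calls that follow, under any setting, are not read as results, because the same values chose the genes. Limma called 0 of the 3 genes in osbzip76-1, beside 0.382% of all genes, and 0 of 3 in osbzip76-2, beside 0.69%. At an unadjusted limma p under 0.05 the counts were 2 of 3 in osbzip76-1 (13.9% of all genes) and 3 of 3 in osbzip76-2 (7.06% of all genes), and voom after adjustment called 0 of 3 in each (0.252% and 0.914% of all genes). With upper-quartile scaling limma called 0 of 3 in each (0.392% and 0.713% of all genes). Without WT replicate 2, limma called DOF3 and DOF5 in each allele, beside 2.44% of all genes in osbzip76-1 and 2.46% in osbzip76-2.

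DOF4, the remaining row with a DOF symbol, was tested. DOF4 was left over when the other 3 were chosen on their values, so its result is not independent of that choice. It stood at 13.3 and 18.1 RPKM in osbzip76-1 replicates 1 and 2, with osbzip76-2 at 28.3 RPKM, against 13.1, 16.4 and 19.0 in WT replicates 1 to 3. Only the osbzip76-2 library lay above the WT range. The mean was 19.9 ± 7.7 RPKM over the mutant libraries and 16.2 ± 2.9 RPKM over the WT libraries (± SD, n = 3 each), and the difference did not pass (limma log2 difference 0.23, SE 0.26, adjusted p = 0.732). The osbzip76-2 library was 0.83 log2 units (SE 0.27) above osbzip76-1, which also did not pass (limma adjusted p = 0.759). Without the osbzip76-2 library the difference from WT was -0.045, of the opposite sign. Other Dof genes were not analysed here.

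The order of the 4 genes differed between mutants and WT. In the mutants DOF3 was first, with its lowest library (39.7 RPKM) above the highest of the other 3 genes (28.3 RPKM, DOF4). DOF2 (18.0 to 21.4 RPKM), DOF4 (13.3 to 28.3 RPKM) and DOF5 (16.9 to 21.1 RPKM) followed with overlapping ranges. In WT, DOF2 was first, at 25.6 to 43.7 RPKM. DOF4 (13.1 to 19.0 RPKM) and DOF3 (7.57 to 18.1 RPKM) overlapped, and so did DOF3 and DOF5 (7.76 to 10.97 RPKM).

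Ratios within a library do not depend on its scaling. The ratio of DOF3 to DOF2 levels was 2.65, 2.30 and 2.20 in the mutant libraries (osbzip76-1 replicates 1 and 2, then osbzip76-2), against 0.671, 0.173 and 0.589 in WT replicates 1 to 3. DOF3 was the higher of the pair in all 3 mutant libraries, and DOF2 in all 3 WT libraries. The ratio of DOF5 to DOF2 was 0.921, 0.788 and 1.17 in the mutant libraries and 0.298, 0.177 and 0.429 in the WT libraries, also without overlap. Every mutant library lay above WT for DOF3 and DOF5 and below WT for DOF2, so neither ratio to DOF2 could overlap. Their separation is not a separate result. The ratio of DOF3 to DOF5 did overlap, at 1.88 to 2.92 in the mutants and 0.977 to 2.25 in WT.

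The summed level of the 4 genes was 106 ± 0.753 RPKM over the mutant libraries and 70.8 ± 4.6 RPKM over the WT libraries (± SD, n = 3 each). DOF3 made up 50.7%, 46.6% and 37.1% of this sum in the mutant libraries, against 27.3%, 10.03% and 21.3% in WT replicates 1 to 3. The share of DOF2 was 16.8% to 20.3% in the mutants and 36.2% to 57.9% in WT. In WT replicate 2, where DOF3 had its smallest share, DOF2 had its largest. The mutant sum thus held more DOF3 and DOF5 and less DOF2 than the WT sum.

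**Figure D3:**
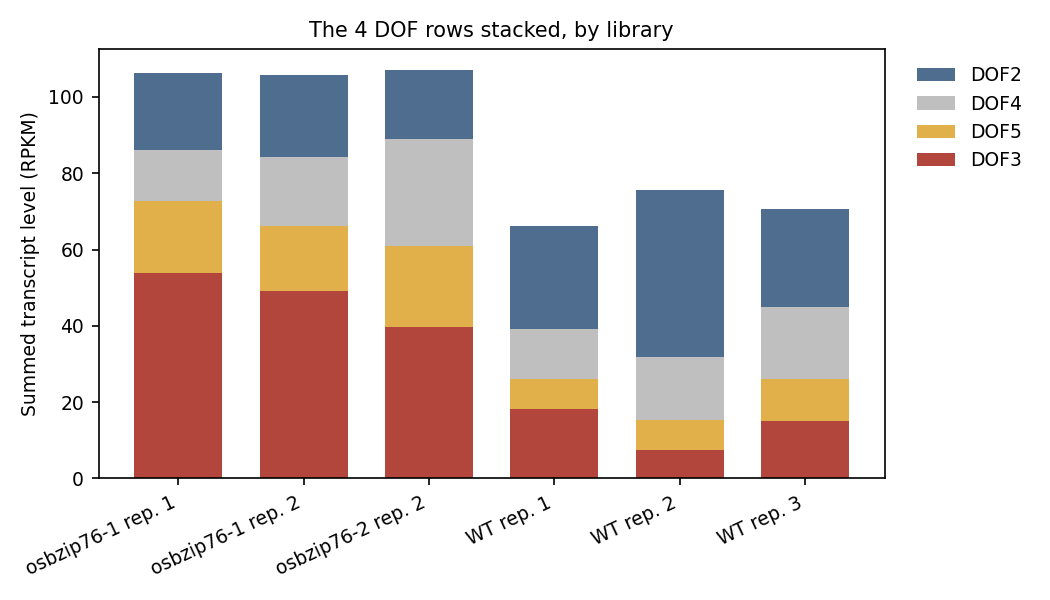
Levels of DOF3, DOF5, DOF4 and DOF2 (RPKM, stacked bars) in each library, mutants on the left and WT on the right. The DOF3 part makes up 37.1% to 50.7% of the bar in the mutants and 10.03% to 27.3% in WT, and the DOF2 part is largest in WT replicate 2.

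Genes of processes linked to Dof factors or to grain filling were then examined from lists of seed bZIP partners, storage proteins, starch synthesis, and gibberellin and alpha-amylase genes. The lists were chosen with earlier results of these data known, so tests on their members are not independent of that choice. The members were matched by symbol. Of the 35825 rows, 35484 carry an identifier only, and 1 of these was matched to a named gene. A list gene that was not found is therefore not shown to be absent from the data. Of the list genes found, 13, DOF4 included, were above the expression filter of 1 RPKM on average. Limma called 0 of the 13 with both alleles against WT (0.387% of all genes) and voom called 0 (0.294% of all genes), while 5 had an unadjusted limma p under 0.05 (13.7% of all genes). Without WT replicate 2 limma called 2 of the 13, AGPL2 and AGPS2, both higher in the mutants, beside 0.502% of all genes. In 5 of the 13 every mutant library lay above every WT library (9.34% of all genes tested), and in 1 every mutant library lay below (12.3% of all genes tested).

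Of the seed bZIP genes, RISBZ1, the partner of the prolamin-box binding factor, had 4.68 and 4.86 RPKM in osbzip76-1 replicates 1 and 2, with osbzip76-2 at 5.15 RPKM, against 2.21, 2.74 and 2.37 in WT replicates 1 to 3. Its groups did not overlap, and it missed the threshold (limma log2 difference 0.78, SE 0.14, adjusted p = 0.0791; 0.0598 to 0.340 over the alternatives). RISBZ3, the most abundant bZIP of the list, had 18.8 to 26.5 RPKM across mutant libraries and 24.9 to 34.3 RPKM across WT libraries, an overlap (limma log2 difference -0.33, SE 0.17, adjusted p = 0.439). The 4 tested members had a median log2 difference of 0.012, near the -0.017 of all genes.

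Of the 56 storage protein symbols searched 1 was found, the glutelin gene GLUD1, and it was below the filter. It had 0.218 and 0 RPKM in osbzip76-1 replicates 1 and 2, with osbzip76-2 at 1.15 RPKM, against 0.0772, 0.220 and 0 in WT replicates 1 to 3. Storage protein genes under other names were not analysed here.

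Of the 38 starch synthesis symbols searched 6 were found, and these 6 genes all encode subunits of ADP-glucose pyrophosphorylase, which supplies ADP-glucose for starch. Their median log2 difference was 0.52, beside -0.017 over all genes, and every mutant library lay above every WT library in 3 of the 6 (9.34% of all genes tested). AGPS2, a small subunit, had 84.4 and 85.9 RPKM in osbzip76-1 replicates 1 and 2, with osbzip76-2 at 81.9 RPKM, against 48.6, 29.4 and 47.2 in WT replicates 1 to 3 (limma log2 difference 1.03, SE 0.19, adjusted p = 0.0882; 0.0176 to 0.340 over the alternatives). Like DOF3, it was lowest in WT replicate 2, and without that library it passed (limma log2 difference 0.80, adjusted p = 0.0176). AGPL3, the most abundant member, had 322 to 383 RPKM across mutant libraries and 333 to 396 RPKM across WT libraries (limma log2 difference -0.081, SE 0.13, adjusted p = 0.824).

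Of the gibberellin and alpha-amylase list, 2 genes were found. MYBS1, a MYB factor known to activate alpha-amylase genes under sugar starvation, had 20.6 and 19.7 RPKM in osbzip76-1 replicates 1 and 2, with osbzip76-2 at 22.1 RPKM, against 13.6, 11.4 and 15.3 in WT replicates 1 to 3. The groups did not overlap, and the gene did not pass (limma log2 difference 0.60, SE 0.13, adjusted p = 0.129; 0.104 to 0.389 over the alternatives). 20ox2, a gibberellin 20-oxidase of gibberellin synthesis, had 11.8 to 12.9 RPKM across mutant libraries and 13.0 to 17.7 RPKM across WT libraries (limma log2 difference -0.21, SE 0.14, adjusted p = 0.551). It was named as the only other member found.

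**Figure D4:**
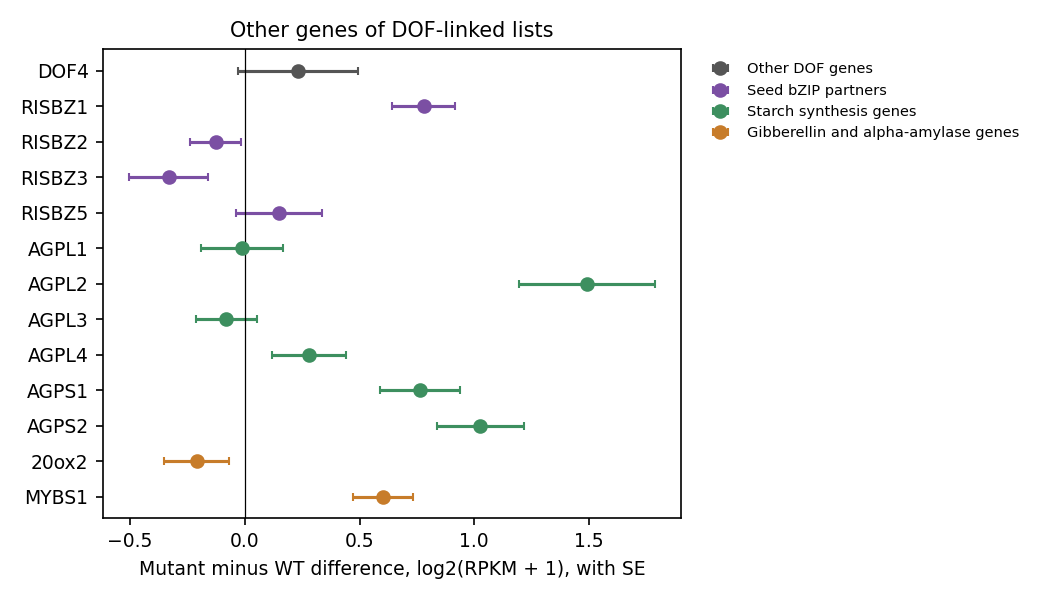
Mutant minus WT difference on the log2(RPKM + 1) scale with its SE (horizontal axis) for the 13 tested genes of the DOF-linked lists, coloured by list. AGPL2 (1.49), AGPS2 (1.03), RISBZ1 (0.78), AGPS1 (0.76) and MYBS1 (0.60) lie to the right of 0, and none of the 13 passed limma's threshold.

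Likeness to each DOF gene was measured as Pearson's r of log2(RPKM + 1) over the 6 libraries, among 3872 tested genes with a range of at least 1 log2 unit, 44 of them named. These libraries fall into mutant and WT groups, so genes that differ between the groups in the same direction tend to a high r. They also include the deviating WT replicate 2, and r is a description of pattern. The named genes most like DOF3 were DMAS1 (r = 0.994), which makes mugineic acids, the iron chelators of grasses, AGPS2 (0.992), AGPS1 (0.983), AGPL2 (0.979) and Cht7 (0.948), a chitinase gene. Without WT replicate 2, over 5 libraries, r was 0.994 for DMAS1 and 0.940 for Cht7, and the other 3 lay between 0.965 and 0.985. DMAS1 had 24.9 and 25.3 RPKM in osbzip76-1 replicates 1 and 2, with osbzip76-2 at 20.03 RPKM, against 10.8, 7.03 and 10.5 in WT replicates 1 to 3. It shared with DOF3 both the lower osbzip76-2 value among the mutants and the lowest value in WT replicate 2. Of the rows with an identifier only, Os07g0548800 (r = 0.996) and Os03g0654700 (r = 0.995) came first. Os03g0654700 had 183 and 183 RPKM in osbzip76-1 replicates 1 and 2, with osbzip76-2 at 122 RPKM, against 30.1, 6.74 and 29.97 in WT replicates 1 to 3.

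For DOF5 the closest named genes were Cht7 (r = 0.974), MST4 (0.929), a monosaccharide transporter gene, AGPS2 (0.920), AGPL2 (0.917) and DMAS1 (0.914). Cht7 was at 2.25 to 3.41 RPKM in the mutants and at 0 to 0.350 RPKM in WT. The closest genes of DOF5 and DOF3 overlapped, with 4 of the 5 named genes on both lists. Each list came from 44 named genes, which were the same except that DOF3 and DOF5 were each left out of their own list. DOF3, DOF5 and these 4 genes were all higher in the mutants, so the overlap is not a separate result.

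For DOF2 the named genes were VIT1.2 (r = 0.962), a vacuolar iron transporter gene, PHN1 (0.944), RAC1 (0.888), GRF4 (0.727), a growth-regulating factor, and rps19 (0.641). PHN1 had 13.9 to 16.04 RPKM across mutant libraries and 20.3 to 28.8 RPKM across WT libraries, with its highest value in WT replicate 2. The likeness of some rested on that library: without it r was 0.870 for VIT1.2 and 0.877 for PHN1, but 0.505 for RAC1 and -0.720 for rps19. The identifier-only rows Os03g0409600 (r = 0.988) and Os01g0139000 (r = 0.984) were closest, with r of 0.971 and 0.927 without that library.

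**Figure D5:**
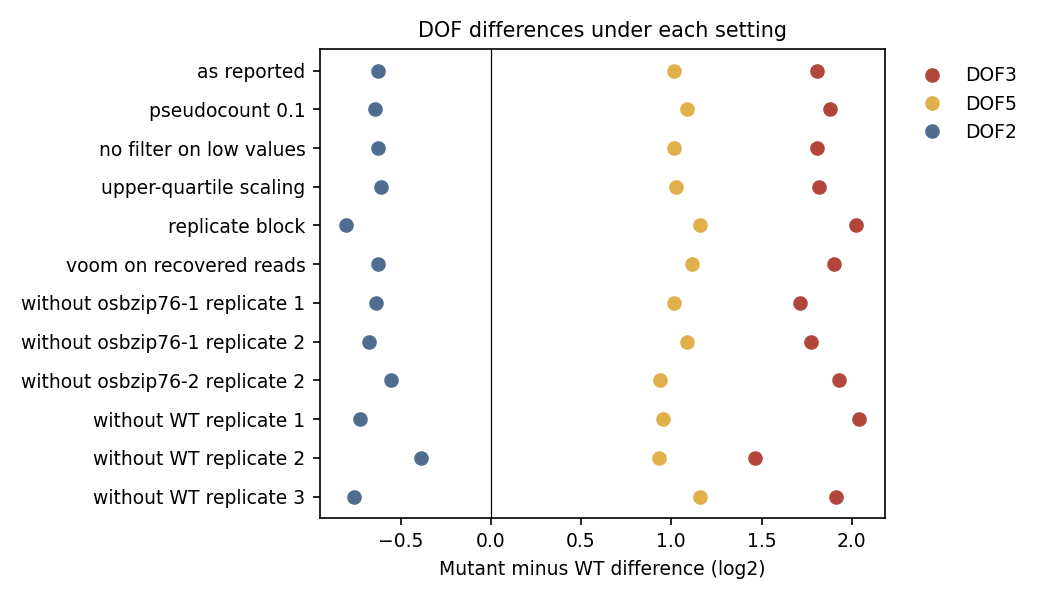
Mutant minus WT difference (log2, horizontal axis) of DOF3, DOF5 and DOF2 as reported and under each alternative setting (rows). DOF3 lies between 1.46 and 2.04, DOF5 between 0.93 and 1.16 and DOF2 between -0.80 and -0.38, and the value without WT replicate 2 is the closest to 0 for each gene.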

How the data were processed

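The authors deposited 1 table of RPKM values, reads scaled by gene model length and library total, as 6 library columns and 2 mean columns, per the file headers. The means equalled those of the library columns within rounding. Per the submitters' processing notes the genome was IRGSP-1.0; the sources used here do not give the aligner, counter, strand use or annotation, so related or overlapping genes may share reads. The labels list 7 libraries; osbzip76-2 replicate 1 was not analysed here.

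Low RPKM values rise in steps of 1 read. The library total and gene length that turn values into whole reads were searched with NumPy 2.4.6; all 168975 values above 0 came out whole within 0.002 reads. A length sharing a factor with all of a gene's counts would be underestimated, and its reads with it. Library totals were 19900850 to 24887952 reads.

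Genes with a mean of at least 1 RPKM (21454) entered limma (version 3.58.1, under R 4.3.3; eBayes with trend, two-sided, log2(RPKM + 1), Benjamini-Hochberg adjustment, threshold 0.05), in a 2-group fit of both alleles against WT and a 3-group fit for each allele. Differences understate the change of low genes. The series description calls the replicates biological without naming plants, so p-values measure the spread between these libraries. Alternatives were limma's voom on the recovered reads with scaling factors from a trimmed mean of log ratios, a pseudocount of 0.1, no filter, upper-quartile scaling, a replicate block and each library left out. Both steps were tested on simulated data. Symbols were matched through the first column and a RefSeq gene table (assembly ASM3414082v1), which matched 188 named rows; DOF3 was found by its symbol in the deposited table. Of each list the most abundant gene and the one with the smallest p were named, and for each DOF gene the 5 named and 2 unnamed rows of highest r, less those of DOF5 without a name. The 3 genes and the lists were chosen with earlier results of these data known.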

Additional observations from a re-analysis of the deposited data

How the results depend on the processing

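DOF2, DOF3 and DOF5 kept their direction under all 11 alternatives. Their groups did not overlap, so leaving out 1 library could not reverse it, and dropping the filter left the 3 values unchanged. DOF2 moved from -0.62 to -0.38 without WT replicate 2. Leaving out 1 library gave 1.46 to 2.04 for DOF3, 0.93 to 1.16 for DOF5 and -0.76 to -0.38 for DOF2 on the log2 scale. Of the list genes, AGPS2 and AGPL2 passed without WT replicate 2 (limma adjusted p of 0.0176 and 0.0107). DOF4 (0.23) changed sign without osbzip76-2 replicate 2 (-0.045), in a range up to 0.47 with 1 library left out, and AGPL1 (-0.014) did so with voom (0.019), without osbzip76-1 replicate 1 (0.045) and without WT replicate 2 (0.17), in a range of -0.16 to 0.17 with 1 library left out. Counts over all genes moved more. For both alleles the count of 83 was 52 without a filter, 32 with a replicate block and 34 to 108 with 1 library left out. For osbzip76-1 the count of 82 was 38 without a filter, 54 with voom and 17 to 525 with 1 library left out. For osbzip76-2 the count of 148 was 29 with a pseudocount of 0.1, 282 without a filter, 78 with a replicate block and 36 to 529 with 1 library left out. The highest of each range was without WT replicate 2. The cause was not tested. The labels do not state that replicate numbers pair the libraries. Same-numbered WT and osbzip76-1 libraries had deviations correlated at -0.011 and -0.097. The deviations of the 2 osbzip76-1 libraries mirror each other, so these values cannot decide on pairing. With the replicate block DOF3, DOF5 and DOF2 stood at 2.02, 1.16 and -0.80. The 3 genes had 188 to 2295 reads per library; for DOF5, the least covered, the 95% counting intervals of WT replicates 1 and 2 overlapped, so these libraries could not be told apart at this depth.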
